A study of Mus musculus with 7 samples.

Results

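Cadherins and protocadherins were examined on 7 microarrays of cells sorted from mouse bowel. A gene was taken as a member when its symbol was Cdh followed by a number or began with Pcdh, when a probe set of the array was annotated with that symbol alone, and, where a gene had several such probe sets, the brightest was used. These steps gave 57 members among 19938 genes: 18 classical cadherins (5 of type I and 13 of type II), 5 atypical cadherins, 12 non-clustered protocadherins and 22 clustered protocadherins, all of the beta cluster. No gene of the gamma cluster had a probe set annotated with its symbol alone, so none is a member. The alpha cluster was represented by a shared probe set that is outside these counts.

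The YFP-positive group held 4 arrays of fluorescent cells, called enteric neural crest-derived cells (ENCDC) in the labels, and the YFP-negative group held 3 arrays of the cells that did not. Both came from whole bowel at embryonic day 17.5, from mice that carried the Wnt1-Cre transgene and the R26R-EYFP reporter, and no untreated or unlabelled genotype was included. Cre under the Wnt1 promoter acts in the neural crest, so the fluorescent cells mark that lineage and include neurons, glia and progenitors. The YFP-negative cells mix the other cell types of the bowel. Markers of other cell types also had signal on YFP-positive arrays: the epithelial mean was 7.47 to 8.51, against 7.99 to 8.10 on YFP-negative arrays. The study compared the populations to find genes enriched in ENCDC. Nothing in the labels ties the arrays of a group to different embryos or litters, so the p-values reflect the spread among these arrays alone, which may be technical.

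Classical cadherins are calcium-dependent adhesion proteins whose outer domains bind a cadherin on the neighbouring cell and whose inner ends bind catenins, which link them to actin. Type I members, such as E-cadherin and N-cadherin, form strong adherens junctions, and type II members are often expressed in restricted sets of neurons and mesenchymal cells. Protocadherins lack the catenin-binding tail: the non-clustered delta members act in axon growth and cell sorting and some of them recruit the WAVE complex, a regulator of actin branching, while the clustered ones are chosen in combinations from arrays of alternative promoters and give neurons distinct surface identities. Neural crest cells change their cadherins as they leave the neural tube, and N-cadherin takes part in the migration of enteric neural crest cells in the mouse.

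Values are the authors' log2 expression levels, and a difference is the mean of the YFP-positive arrays minus the mean of the YFP-negative arrays, with the standard error of the limma fit. A gene was called when its limma p-value, adjusted over all 19938 genes, was under 0.05. Array medians ran from 5.87 to 5.92. All 9 neuron markers and all 5 markers of glia and progenitors were called higher in YFP-positive cells. All 7 myeloid and 7 of 8 fibroblast markers were called lower. None of the 11 epithelial markers was called, and their mean level was 7.47, 7.71, 8.27 and 8.51 on YFP-positive arrays 1 to 4, against 8.01, 7.99 and 8.10 on the YFP-negative arrays. The levels carry no detection call, so a dim gene cannot be told from background. A lower level can reflect fewer cells of a type or less RNA per cell, and these cannot be told apart in sorted bulk samples.

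Of the 57 members, 17 were called (29.8%, against 17.5% of all genes). Of these, 13 were higher in YFP-positive cells, where 8.39% of all genes were, and 4 were lower, where 9.11% of all genes were. Separate ranges on YFP-positive and YFP-negative arrays were seen in 26 of 57 members, against 5368 of all 19938 genes (26.9%). Of these, 19 members, and 2682 of all 19938 genes, were higher in YFP-positive cells. The median difference was 0.21 over the members and 0.01 over all genes. By class, 6 of 18 classical cadherins were called higher and 2 lower, none of 5 atypical cadherins was called, 4 of 12 non-clustered protocadherins were called higher and 2 lower, and 3 of 22 beta protocadherins were called higher and none lower. The dimmest 6646 of the 19938 genes by mean level held 28 of the 57 members, and 4 of the 17 called members, Cdh9, Cdh12, Pcdh19 and Pcdhb10, were among these. Whether the classes differ from each other was not tested.

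**Figure D1:**
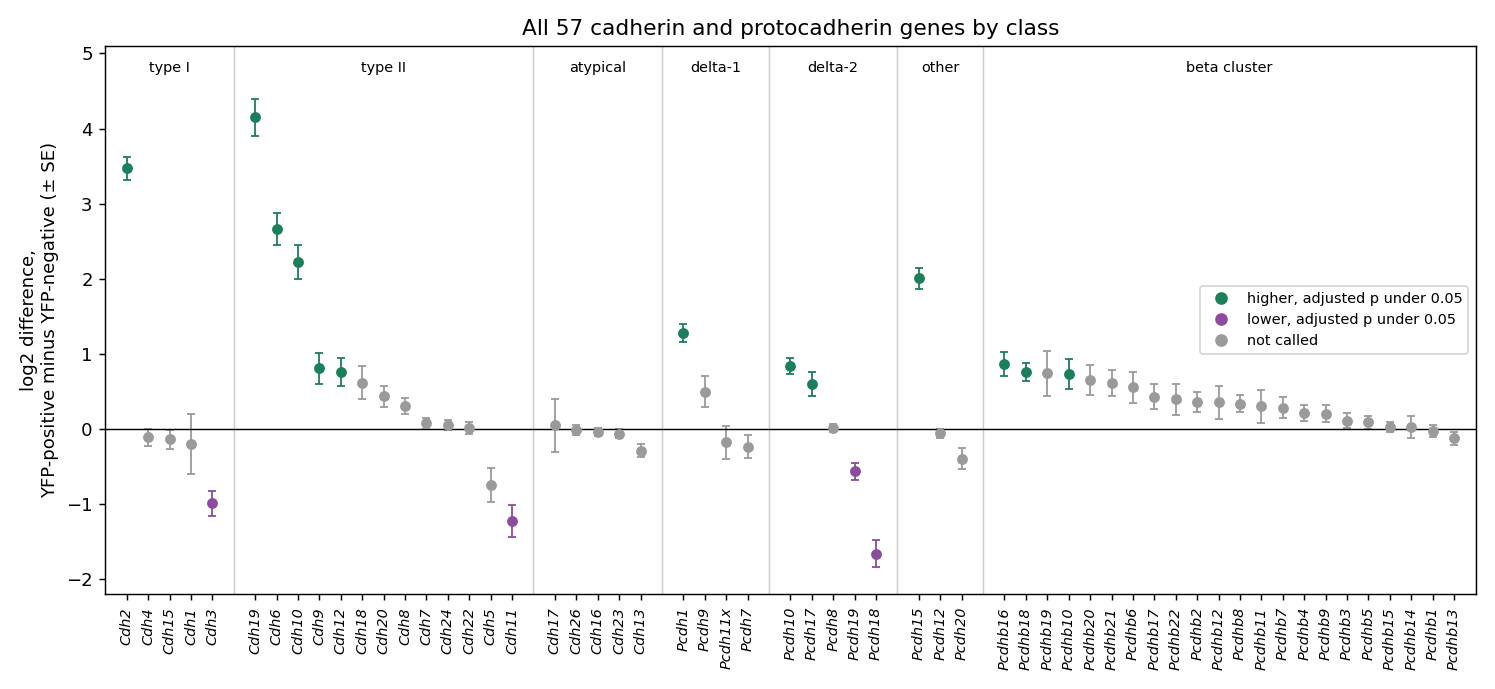
Difference in log2 level, YFP-positive minus YFP-negative, for each of the 57 members, with the classes along the x axis and ± SE as bars. Green points are the 13 members called higher, purple points the 4 called lower and grey points the rest. The classical type II members run from -1.23 for Cdh11 to 4.15 for Cdh19, while the 22 beta members lie between -0.13 and 0.86.

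The type I cadherins held a called member in each direction. Cdh2, which encodes N-cadherin of neural and mesenchymal tissue, had log2 levels of 9.93, 9.72, 9.48 and 9.5 on the YFP-positive arrays, against 6.45, 5.99 and 6.11 on the YFP-negative arrays. Every YFP-positive array lay above every YFP-negative array, and the gap between the groups was wider than the range within either. The difference was 3.47 ± 0.15 (SE), an 11.1-fold higher level in YFP-positive cells (limma adjusted p = 3.41e-05). Cdh3, which encodes P-cadherin of basal epithelia, had levels of 6.04, 6.25, 6.49 and 6.54 in YFP-positive cells, against 7.58, 7.32 and 7.06 in YFP-negative cells. The groups did not overlap, and the difference of -0.99 ± 0.17 was a 1.98-fold lower level in YFP-positive cells (limma adjusted p = 0.00661).

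Cdh1, which encodes E-cadherin of epithelial adherens junctions, was not called. Its levels were 6.69, 7.50, 8.11 and 8.52 on YFP-positive arrays 1 to 4, against 7.95, 7.88 and 7.88 on the YFP-negative arrays. YFP-positive arrays 1 and 2 lay below all YFP-negative arrays and arrays 3 and 4 above all of them, so the groups overlapped. The difference was -0.20 ± 0.40 with a 95% confidence interval from -1.15 to 0.75 (limma adjusted p = 0.789), and it was -0.81 without YFP-positive arrays 3 and 4 (limma adjusted p = 0.126). The mean of the epithelial markers had the same order of YFP-positive arrays, with arrays 1 and 2 lowest and arrays 3 and 4 highest of all 7 arrays, and its part in the Cdh1 values was not tested. The remaining type I members, Cdh4 (R-cadherin) and Cdh15 (M-cadherin of muscle), had differences of -0.11 ± 0.11 and -0.14 ± 0.12, with overlapping groups.

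Of the 13 type II cadherins, 5 were called higher (8.39% of all genes were) and 1 lower (9.11% of all genes were). Cdh19, a cadherin known in the rat as a marker of Schwann cell precursors, had levels of 7.53, 7.68, 6.82 and 6.95 in YFP-positive cells, against 3.05, 2.83 and 3.41 in YFP-negative cells. Arrays 1 and 2 were the higher ones in the YFP-positive group, and the groups lay far apart. The difference of 4.15 ± 0.25 was a 17.7-fold higher level in YFP-positive cells (limma adjusted p = 9.23e-05), the largest of the 57 members. Cdh6 (K-cadherin), expressed in neural crest and kidney, had levels of 9.21, 8.44, 8.47 and 8.56, against 6.26, 5.95 and 5.81 in YFP-negative cells. YFP-positive array 1 was the highest, and the groups did not overlap. The difference was 2.66 ± 0.21, a 6.32-fold higher level in YFP-positive cells (limma adjusted p = 0.000252). Cdh10, a cadherin of the nervous system, had levels of 7.10, 7.32, 6.65 and 6.70 in YFP-positive cells and 4.28, 5.0 and 4.85 in YFP-negative cells. Again arrays 1 and 2 were highest, there was no overlap, and the difference of 2.23 ± 0.23 was a 4.68-fold higher level in YFP-positive cells (limma adjusted p = 0.000795).

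**Figure D2:**
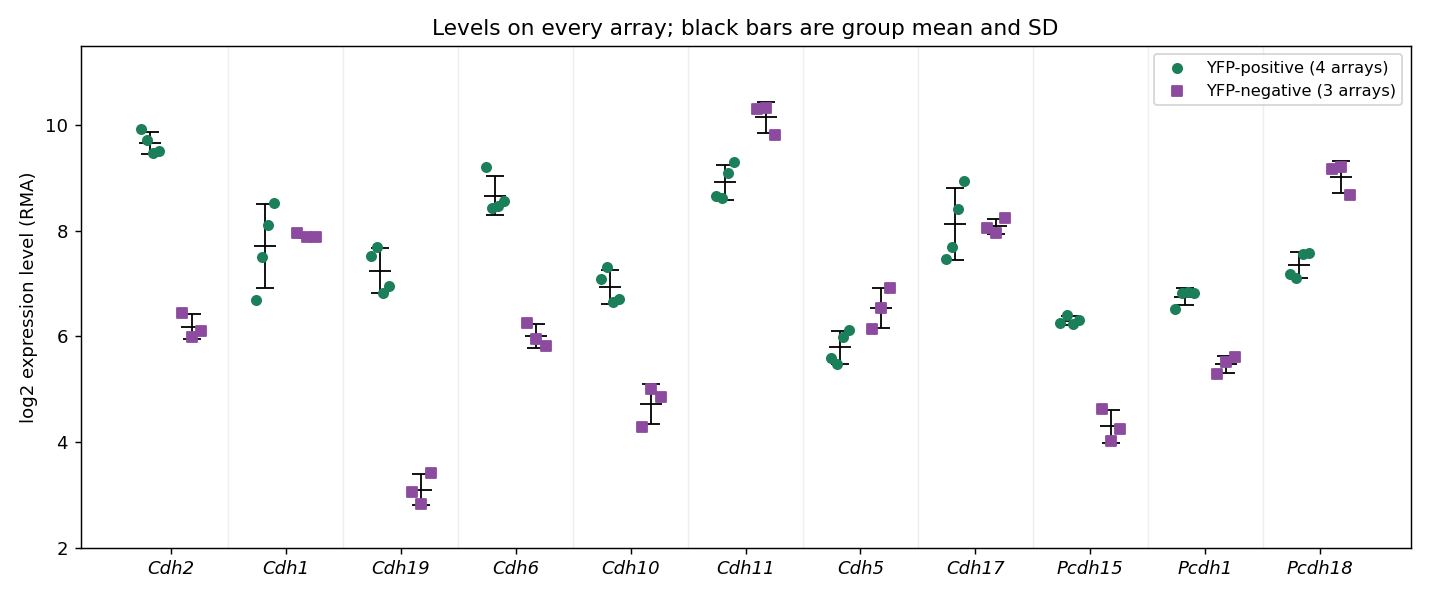
Log2 level on each array of the members called with a difference of at least 1 in size and of Cdh1, Cdh5 and Cdh17. YFP-positive arrays stand to the left of YFP-negative arrays, and black bars mark the group mean ± SD. Cdh2, Cdh6, Cdh10 and Cdh19 lie higher on all 4 YFP-positive arrays than on any YFP-negative array, Cdh11 and Pcdh18 lie lower on all 4, and Cdh1 and Cdh17 overlap.

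Both other called members on the higher side of type II were dim. Cdh9 had levels of 4.18, 4.35, 3.46 and 3.75 in YFP-positive cells, against 3.12, 3.06 and 3.20 in YFP-negative cells. Cdh12 had levels of 5.39, 5.07, 4.89 and 4.62 in YFP-positive cells and 4.20, 4.04 and 4.44 in YFP-negative cells. Both encode cadherins of the brain, and for both the groups did not overlap although the YFP-positive arrays spread widely. The differences were 0.81 ± 0.21 for Cdh9 (limma adjusted p = 0.039) and 0.76 ± 0.19 for Cdh12 (limma adjusted p = 0.0327). Both calls rested on several arrays: the Cdh9 call was lost in 6 of 7 fits that left out an array, all but that without YFP-positive array 3, with adjusted p up to 0.129. The Cdh12 call was lost in 5 of 7, all but those that left out array 4 of the YFP-positive or array 3 of the YFP-negative group, with adjusted p up to 0.124. Cdh18, Cdh20 and Cdh8, also cadherins of the nervous system, had non-overlapping groups and differences of 0.62 ± 0.22, 0.44 ± 0.14 and 0.31 ± 0.10, and none was called (limma adjusted p of 0.103, 0.0748 and 0.0869). Without YFP-positive arrays 3 and 4, Cdh18 differed by 0.97 (limma adjusted p = 0.00847) and Cdh20 by 0.61 (limma adjusted p = 0.0481).

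Cdh11 (OB-cadherin), a cadherin of mesenchyme and bone, went the other way. Its levels were 8.66, 8.63, 9.10 and 9.30 in YFP-positive cells, against 10.31, 10.32 and 9.81 in YFP-negative cells. YFP-positive arrays 3 and 4 lay nearest to the YFP-negative group, without reaching it. The difference of -1.23 ± 0.21 was a 2.34-fold lower level in YFP-positive cells (limma adjusted p = 0.00734). The mean of 8 fibroblast markers moved with it, at 7.65, 7.93, 8.36 and 8.55 in YFP-positive cells and 9.90, 9.90 and 9.30 in YFP-negative cells, and its part in the Cdh11 difference was not tested. Another 3 probe sets that list Cdh11 together with other genes had differences of 0.09, 0.13 and 0.09, not called, and whether they measure Cdh11 was not tested.

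Cdh5 encodes VE-cadherin, the junction protein of endothelium. Its levels were 5.59, 5.47, 6.0 and 6.11 in YFP-positive cells, against 6.15, 6.54 and 6.92 in YFP-negative cells. The groups did not overlap, but the highest YFP-positive array came close to the lowest YFP-negative array. The difference of -0.75 ± 0.23 was not called (limma adjusted p = 0.0671). Of 8 other endothelial markers Kdr was called higher, Pecam1 and Emcn were called lower and 5 were not called, and the mean of the list was 5.08, 5.04, 5.19 and 5.25 in YFP-positive cells and 5.54, 5.36 and 5.61 in YFP-negative cells. The remaining type II members Cdh7, Cdh22 and Cdh24 had differences of at most 0.07 in size and overlapping groups, and Cdh7 and Cdh22 had the same value on all 4 YFP-positive arrays.

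None of the atypical cadherins was called (17.5% of all genes were). Cdh17 (LI-cadherin), an adhesion protein of intestinal epithelium, had levels of 7.46, 7.70, 8.42 and 8.95 on YFP-positive arrays 1 to 4, against 8.05, 7.96 and 8.24 on the YFP-negative arrays. As with Cdh1, arrays 1 and 2 lay below and arrays 3 and 4 above the whole YFP-negative group, in the order of the epithelial markers. The difference was 0.05 ± 0.35 with a 95% confidence interval from -0.78 to 0.87 (limma adjusted p = 0.949), and it was -0.51 without YFP-positive arrays 3 and 4 (limma adjusted p = 0.071). Cdh13 (T-cadherin), which is held to the membrane by a lipid anchor, had levels of 5.67, 5.63, 5.66 and 5.58 in YFP-positive cells and 5.79, 5.87 and 6.12 in YFP-negative cells. Its groups did not overlap, and its difference of -0.29 ± 0.09 was not called (limma adjusted p = 0.0639). Cdh16, Cdh23 and Cdh26 had differences between -0.06 and -0.01, overlapping groups and levels among the dimmest 6646 genes.

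**Figure D3:**
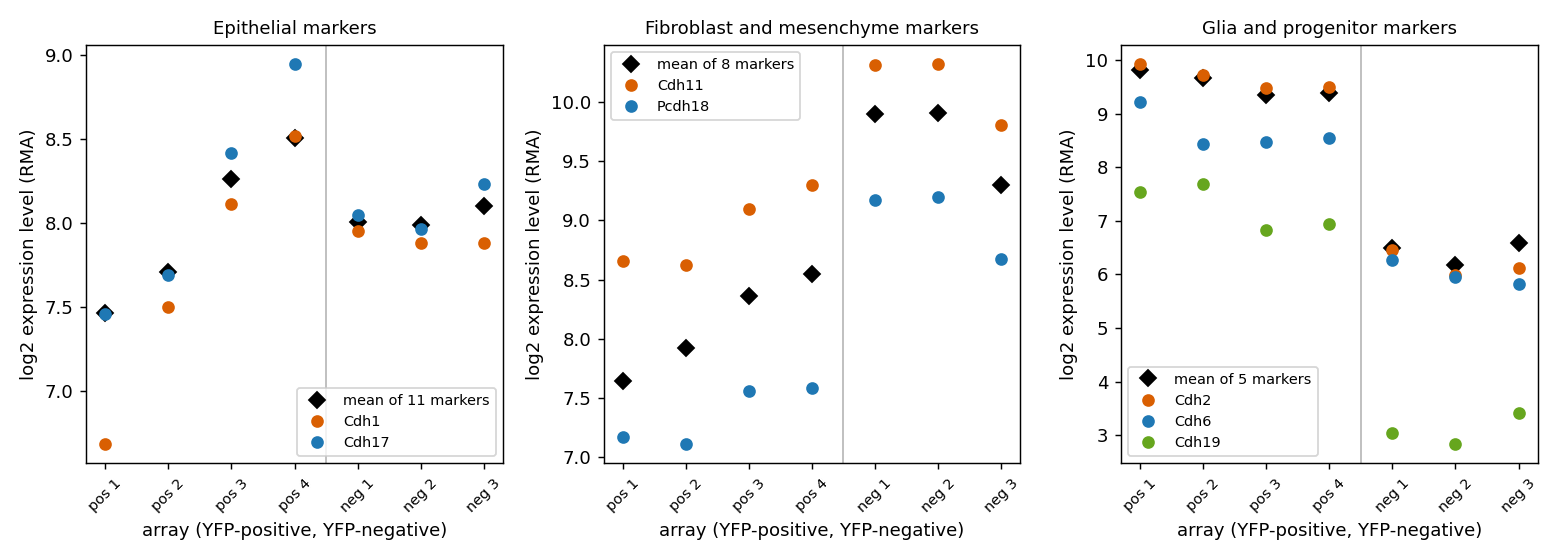
Log2 level on each array (x axis, YFP-positive arrays 1 to 4 left of YFP-negative arrays 1 to 3) of the mean of a marker list (black diamonds) and of members known from the same tissue (coloured circles). Cdh1 and Cdh17 have the array order of the epithelial mean among YFP-positive arrays, Cdh11 and Pcdh18 are lowest on YFP-positive arrays 1 and 2, where the fibroblast mean is lowest, and Cdh2, Cdh6 and Cdh19 lie higher on all YFP-positive arrays, as does the mean of the glia and progenitor markers.

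Among the non-clustered protocadherins, Pcdh15 had the largest difference. Its product forms, with that of Cdh23, the tip links of inner ear hair cells. The probe set used had levels of 6.25, 6.41, 6.24 and 6.30 in YFP-positive cells, against 4.62, 4.01 and 4.25 in YFP-negative cells. The YFP-positive arrays lay close together and far above the YFP-negative arrays. The difference of 2.01 ± 0.14 was a 4.01-fold higher level in YFP-positive cells (limma adjusted p = 0.000153). A second, dimmer Pcdh15 probe set had a difference of 0.20 ± 0.08 and was not called when every probe set was tested (limma adjusted p = 0.18), so the probe sets of this gene disagree in size. Cdh23, the tip link partner, had levels between 3.85 and 3.92 in YFP-positive cells and between 3.91 and 4.07 in YFP-negative cells, with a difference of -0.06 ± 0.06.

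Of the 4 delta-1 members, 1 was called (17.5% of all genes were). Pcdh1, an adhesion protein of neurons, airway epithelium and vessels, had levels of 6.51, 6.83, 6.85 and 6.82 in YFP-positive cells, against 5.29, 5.51 and 5.62 in YFP-negative cells. The groups did not overlap, and 3 of the YFP-positive arrays were almost level with array 1 below them. The difference was 1.28 ± 0.11, a 2.42-fold higher level in YFP-positive cells (limma adjusted p = 0.000435). Pcdh9 had a difference of 0.50 ± 0.21 (limma adjusted p = 0.162), with a second probe set at 0.51 ± 0.19, Pcdh7 one of -0.24 ± 0.15 and Pcdh11x one of -0.18 ± 0.22, none of them called and all with overlapping groups.

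Of the 5 delta-2 members, 2 were called higher (8.39% of all genes were) and 2 lower (9.11% of all genes were). Pcdh18 had levels of 7.18, 7.11, 7.56 and 7.58 in YFP-positive cells, against 9.18, 9.20 and 8.67 in YFP-negative cells. No array of one group reached the other, and YFP-positive arrays 3 and 4 were the nearer ones. The difference of -1.66 ± 0.18 was a 3.15-fold lower level in YFP-positive cells (limma adjusted p = 0.000993), the largest on the lower side. The fibroblast marker mean was lower on the same arrays, and its part in this difference was not tested.

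Pcdh19, whose human gene is linked to an epilepsy of girls, had levels of 4.88, 4.91, 4.56 and 4.81 in YFP-positive cells and 5.20, 5.53 and 5.32 in YFP-negative cells. Its difference of -0.56 ± 0.11 was called (limma adjusted p = 0.0148) but not without YFP-negative array 2 (limma adjusted p = 0.0551), and its level was among the dimmest 6646 genes. Pcdh10 (OL-protocadherin), which acts in axon growth, had levels of 5.74, 5.71, 5.94 and 5.55 in YFP-positive cells, against 5.0, 4.76 and 4.92 in YFP-negative cells. The groups did not overlap, and the difference was 0.84 ± 0.11 (limma adjusted p = 0.00185). Pcdh17, a protocadherin of growing axons, had levels of 7.55, 6.93, 6.97 and 7.20 in YFP-positive cells and 6.47, 6.49 and 6.73 in YFP-negative cells. There was no overlap, and the difference of 0.60 ± 0.16 (limma adjusted p = 0.0447) lost its call in 6 of 7 fits that left out an array, all but that without YFP-positive array 1, with adjusted p up to 0.146. Pcdh8 had a difference of 0.01 ± 0.06.

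The other non-clustered members were not called. Pcdh20 had a difference of -0.40 ± 0.14 with no overlap (limma adjusted p = 0.101), and Pcdh12, a protocadherin of endothelium, one of -0.05 ± 0.06.

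Promoters from RefSeq (GRCm38.p6) are printed for Cdh6, Cdh10, Pcdh15 and Pcdh18, members with differences of at least 1 in either direction, in each case the 250 bases before the gene's start, 5′ to 3′ on the gene's own strand. Capitals mark a core bound by Sox factors (ACAAAG or ACAATG) or the E-box CAGGTG, the core bound by the Snail and ZEB repressors of Cdh1, on either strand, so that CTTTGT and CACCTG are the same motifs read on the other strand. Cdh6 lies at chr15:13173676-13173925 on the minus strand, and holds ACAAAG.
Cdh6: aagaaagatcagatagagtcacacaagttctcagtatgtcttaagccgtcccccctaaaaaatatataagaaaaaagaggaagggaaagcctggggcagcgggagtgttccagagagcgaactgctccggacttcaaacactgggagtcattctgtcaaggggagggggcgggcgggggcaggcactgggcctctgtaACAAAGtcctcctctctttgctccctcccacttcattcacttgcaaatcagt
Cdh10, at chr15:18820079-18820328 on the plus strand, holds none of the motifs.
Cdh10: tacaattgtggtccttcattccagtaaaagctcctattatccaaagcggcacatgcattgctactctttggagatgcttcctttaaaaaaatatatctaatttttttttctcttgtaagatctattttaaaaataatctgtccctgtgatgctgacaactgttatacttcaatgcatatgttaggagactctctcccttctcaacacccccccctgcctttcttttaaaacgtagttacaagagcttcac
Pcdh15, at chr10:73821617-73821866 on the plus strand, holds the E-box.
Pcdh15: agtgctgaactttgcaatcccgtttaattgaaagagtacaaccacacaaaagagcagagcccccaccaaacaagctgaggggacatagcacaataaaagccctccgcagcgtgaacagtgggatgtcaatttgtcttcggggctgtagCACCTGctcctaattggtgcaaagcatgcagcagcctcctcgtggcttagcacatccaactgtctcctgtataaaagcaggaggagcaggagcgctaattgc
Pcdh18, at chr3:49757317-49757566 on the minus strand, holds a Sox core.
Pcdh18: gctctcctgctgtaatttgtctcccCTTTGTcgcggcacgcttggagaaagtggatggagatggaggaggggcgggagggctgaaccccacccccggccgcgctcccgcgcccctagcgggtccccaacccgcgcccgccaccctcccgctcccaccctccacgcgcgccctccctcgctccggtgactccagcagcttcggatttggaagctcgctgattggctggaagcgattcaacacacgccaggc
The table held 25 promoters of 22 members. A Sox core was present in 5 of them (20%, against 25.2% of 32851 promoters of the same length) and the E-box in 3 (12%, against 17.2%). Motif letters in these windows are a description and say nothing of binding.

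The beta protocadherins lie side by side, each with its own promoter, and their order along the chromosome was that of their numbers. The mean level of the 22 genes was 5.02, 4.92, 4.90 and 4.81 on the YFP-positive arrays, against 4.67, 4.67 and 4.32 on the YFP-negative arrays. All YFP-positive arrays lay above the YFP-negative arrays, and YFP-negative array 3 was the lowest. Of the 22 genes, 20 had a positive difference, with a median of 0.35 against 0.01 over all genes, and 3 were called higher (8.39% of all genes were). The groups did not overlap for 6 of them, all higher in YFP-positive cells, as for 2682 of all 19938 genes in that direction. At an unadjusted p under 0.05 there were 10 of 22, against 6016 of all 19938 genes, and 14 of the 22 were among the dimmest 6646 genes. Genes of the cluster are close copies of each other, so a probe may read more than its own gene.

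Pcdhb16 had levels of 6.38, 6.10, 5.89 and 5.78 in YFP-positive cells, against 5.25, 5.33 and 4.95 in YFP-negative cells, a difference of 0.86 ± 0.16 (limma adjusted p = 0.011). Pcdhb18 had levels of 5.71, 5.65, 5.51 and 5.59 in YFP-positive cells, against 4.69, 5.16 and 4.72 in YFP-negative cells, a difference of 0.76 ± 0.12 (limma adjusted p = 0.00596). Pcdhb10 had levels of 4.24, 4.63, 4.37 and 4.11 in YFP-positive cells, against 4.02, 3.56 and 3.23 in YFP-negative cells, a difference of 0.74 ± 0.20 (limma adjusted p = 0.0471). In all 3 genes the groups did not overlap. The Pcdhb10 call was lost in 6 of 7 fits that left out an array, all but that without YFP-negative array 1, with adjusted p up to 0.143. Pcdhb19, Pcdhb20 and Pcdhb21 had non-overlapping groups and differences of 0.74 ± 0.30, 0.65 ± 0.20 and 0.62 ± 0.17, and were not called (limma adjusted p of 0.148, 0.072 and 0.0524). The first 11 genes along the cluster had a median difference of 0.29, with 1 called, and the last 11 had 0.43, with 2 called.

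**Figure D4:**
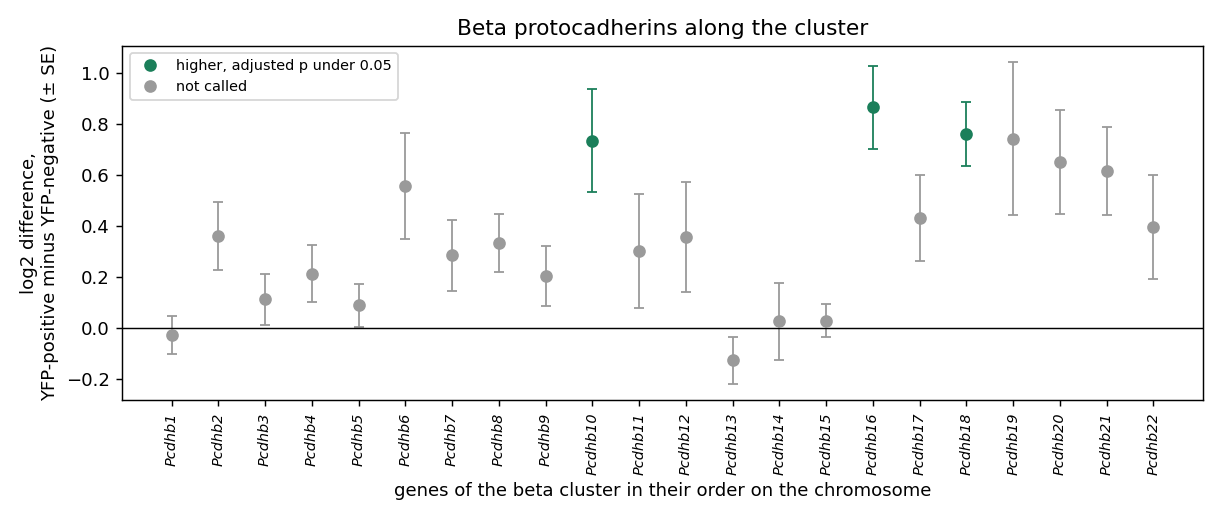
Difference in log2 level, YFP-positive minus YFP-negative, for the 22 beta protocadherins in their order along the cluster (x axis), with ± SE as bars and the called genes in green. Pcdhb1 and Pcdhb13 are the genes below 0, and the called genes Pcdhb10, Pcdhb16 and Pcdhb18 lie between 0.74 and 0.86.

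Members differed in how the 4 YFP-positive arrays were ordered. For 7 of the 13 members called higher, Cdh2, Cdh9, Cdh10, Cdh12, Cdh19, Pcdhb16 and Pcdhb18, arrays 1 and 2 both lay above arrays 3 and 4, as they did for 49.5% of all genes called higher. Among the 4 members called lower, arrays 3 and 4 both lay above arrays 1 and 2 for Cdh3, Cdh11 and Pcdh18, as for 48.6% of all genes called lower, and Pcdh19 had the opposite order. The mean of the neuron markers was 9.46, 9.44, 9.13 and 8.88 on YFP-positive arrays 1 to 4, that of smooth muscle markers was 7.84, 8.60, 9.16 and 9.56 and that of myeloid markers 5.51, 5.92, 6.62 and 6.70. On the YFP-negative arrays these means were 5.36, 5.08 and 5.42 for neurons, 10.31, 10.22 and 9.76 for smooth muscle and 9.73, 10.01 and 9.98 for myeloid cells. Their part in the member differences was not tested. Without YFP-positive arrays 3 and 4, Cdh2, Cdh6, Cdh10, Cdh19, Pcdh1, Pcdh15 and Pcdh18 were still called in the same directions.

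The genes that cadherins act through were described by lists of symbols. Of 10 catenin genes, 4 were called higher (8.39% of all genes were) and none lower (9.11% of all genes were). Their median difference was 0.18, against 0.01 over all genes. Whether any of the lists differs from all genes was not tested. Ctnna2, the alpha-catenin of neurons, had levels of 7.84, 7.94, 7.44 and 7.23 in YFP-positive cells, against 4.78, 4.94 and 5.08 in YFP-negative cells, with no overlap and a difference of 2.68 ± 0.19 (limma adjusted p = 0.000148). Ctnnal1, an alpha-catenin-like protein, differed by 2.52 ± 0.14 (limma adjusted p = 7.43e-05) and Arvcf, a p120-catenin relative that binds the cadherin tail near the membrane, by 1.83 ± 0.15 (limma adjusted p = 0.000328). The widely expressed catenins were not called, with differences of 0.06 ± 0.08 for Ctnna1, 0.16 ± 0.09 for Ctnnb1 and 0.20 ± 0.16 for Ctnnd1. Ctnnd2, a delta-catenin of neurons, differed by 0.48 ± 0.13, and its call (limma adjusted p = 0.0473) was lost in 6 of the fits that left out an array.

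Of 15 other adherens junction genes, 4 were called higher (8.39% of all genes were) and 1 lower (9.11% of all genes were). Their median difference was 0.12, against 0.01 over all genes. Magi1, a junction scaffold, differed by 1.11 ± 0.08 (limma adjusted p = 0.000136) and Afdn (afadin), which links nectins to actin, by 0.98 ± 0.09 (limma adjusted p = 0.000394). Vcl (vinculin), which binds alpha-catenin under tension, differed by -0.98 ± 0.19 (limma adjusted p = 0.0116) and lost its call without YFP-negative array 1 (0.0502) or 2 (0.054). When YFP-positive arrays 3 and 4 were left out, 2 of these genes were called higher and 3 lower. None of 7 desmosomal cadherins was called by limma, and 1 of them had an unadjusted p under 0.05, against 6016 of all 19938 genes. Of 16 other genes of the cadherin superfamily, 5 were called higher (8.39% of all genes were) and none lower (9.11% of all genes were). Celsr3 and Celsr2, membrane receptors of planar polarity and axon guidance, differed by 1.17 ± 0.12 and 1.13 ± 0.06 (limma adjusted p of 0.000924 and 7.43e-05), and Clstn1 (calsyntenin-1), a synaptic and transport protein, by 0.71 ± 0.10 (limma adjusted p = 0.00307).

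The WAVE complex, which some delta protocadherins recruit, had 4 of 10 genes called higher and 3 lower. Over all genes, 8.39% were called higher and 9.11% lower. Wasf3 differed by 1.18 ± 0.08 (limma adjusted p = 0.000168), while Nckap1l and Abi3 differed by -3.44 ± 0.21 and -1.98 ± 0.27 (limma adjusted p of 9.55e-05 and 0.0025). Nckap1l is the form of the Nckap1 subunit made in blood cells. The 7 myeloid markers were also lower on the YFP-positive arrays, and their part in the Nckap1l difference was not tested. Of 13 genes for proteases that cut cadherins or mature them, 4 were called lower (9.11% of all genes were) and none higher. Their median difference was -0.21, against 0.01 over all genes. The largest differences were -1.71 ± 0.24 for the matrix metalloprotease Mmp2, -0.70 ± 0.09 for Furin, which cleaves cadherin precursors, and -0.66 ± 0.13 for Mmp14 (limma adjusted p of 0.00314, 0.00226 and 0.0153). The count of proteases called lower was 2 without YFP-positive arrays 3 and 4 and when array 1 or 2 of the YFP-negative group was left out, and without array 1 another protease was called higher. The Mmp14 call was lost without array 2 of the YFP-positive group and without arrays 1 or 2 of the YFP-negative group.

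None of 12 genes for control of the clustered promoters, CTCF and cohesin among them, was called by limma, with 3 at an unadjusted p under 0.05 (6016 of all 19938 genes were) and a median difference of 0.07. Of 8 repressors of Cdh1, 4 were called lower (9.11% of all genes were) and 1 higher (8.39% of all genes were). Without YFP-negative array 2, 2 of them were called higher. Snai2 (Slug) differed by -1.95 ± 0.33 (limma adjusted p = 0.00721) and Twist2, which is also among the fibroblast markers, by -1.0 ± 0.15 (limma adjusted p = 0.0038), while Tcf4 differed by 1.15 ± 0.09 (limma adjusted p = 0.00026).

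**Figure D5:**
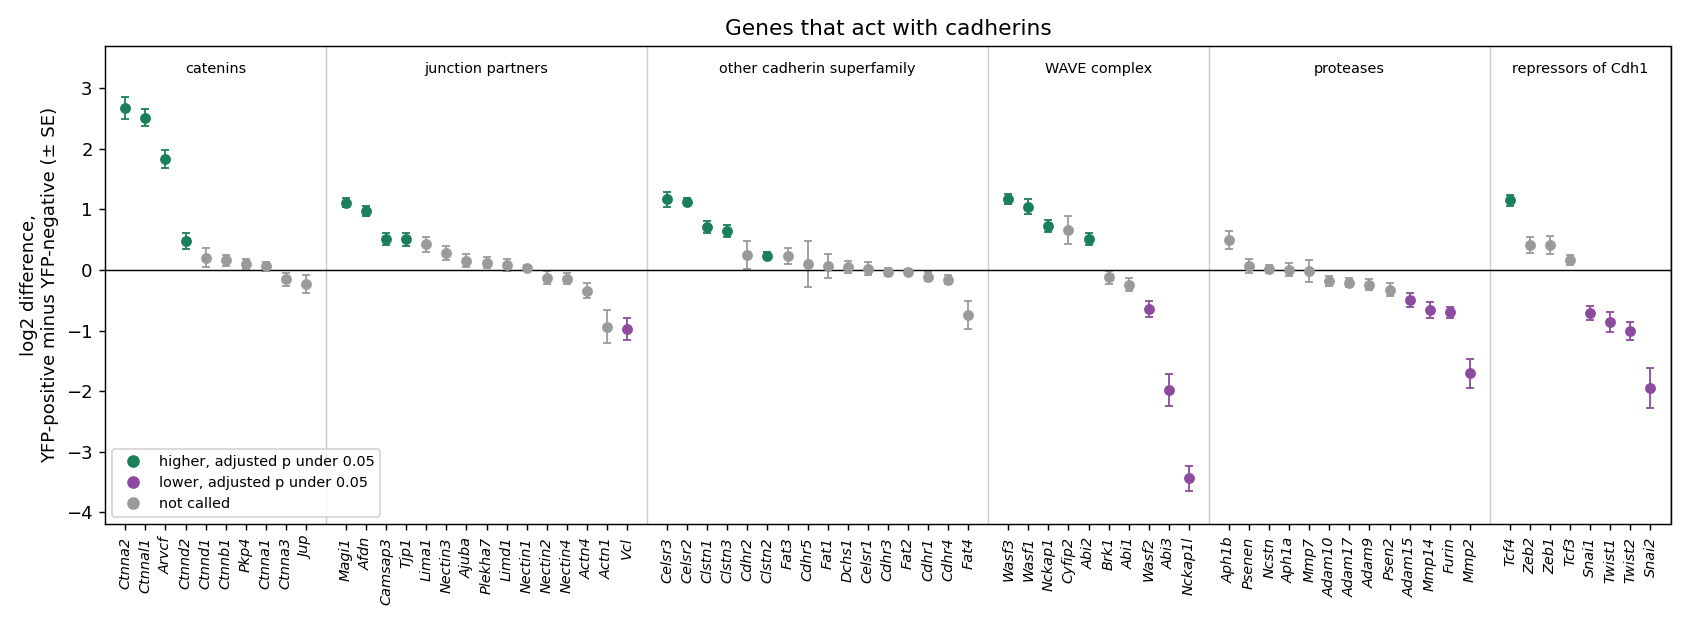
Difference in log2 level, YFP-positive minus YFP-negative, for genes of the partner lists (x axis, list by list), with ± SE as bars, genes called higher in green and lower in purple. The desmosomal cadherins and the genes for control of the clustered promoters, none of them called, are not drawn. Catenins and the other cadherin superfamily genes have called genes above 0 and none below, the proteases have called genes below 0 and none above, and the WAVE complex has both.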

How the data were processed

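RNA of 7 samples, 4 YFP-positive and 3 YFP-negative, was hybridised to an Affymetrix mouse gene array. The deposited values are log2 levels per probe set, which the authors computed in Affymetrix Expression Console by RMA (background correction, quantile scaling, summary of a set's probes), per the submitters' processing notes; the versions and the genome build: not given in the sources used here. Per the labels' protocols, cDNA was amplified from very small RNA amounts, which can compress differences. Of 35556 probe sets, 21789 had 1 symbol in the platform annotation, 1621 had several and 12146 had none; the first kind gave 19938 genes, with the brightest probe set kept. All 57 members' Entrez identifiers matched RefSeq with the same symbol. The values give no counts, so the number of arrays limits the precision.

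Groups were compared with limma 3.58.1 (lmFit and eBayes, group as the only term) in R 4.3.3, with Benjamini-Hochberg adjustment over all genes and a threshold of 0.05; Python 3.11.15, pandas 2.3.3, numpy 2.4.6 and matplotlib 3.10.9 did the rest. The fit was tested on simulated data. Members and lists were chosen with earlier results of these data known. Values on every array are given for called members with a difference of at least 1 and for Cdh1, Cdh5, Cdh11 and Cdh17; those of Cdh3, Cdh9, Cdh12, Cdh13, Cdh23, Pcdh10, Pcdh17, Pcdh19, Pcdhb10, Pcdhb16, Pcdhb18 and Ctnna2 were added after their values were seen. Of each partner list the 3 largest called differences are named; Ctnna1, Ctnnb1, Ctnnd1 and Ctnnd2 were added afterwards. The alternatives tried were trend and robust options of eBayes, median centring, a second quantile normalization, the dimmest 6646 genes left out, the mean of a gene's probe sets, array weights, a replicate block, each array left out, YFP-positive arrays 3 and 4 left out, a test against a 1.5-fold difference (treat) and, chosen after seeing the data, every probe set tested.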

Additional observations from a re-analysis of the deposited data

Results flagged for a closer look

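Single arrays that stood apart from the other 3 of the YFP-positive group were searched for by the gap to the nearest array over the range of the group, set against Dixon's 95% critical value. Of 55 members with a range above 0, 4 passed, and chance passes about 1 in 20 groups. Cdh6 was highest on array 1 (ratio 0.847), Pcdh1 was lowest on array 1 (0.913), Pcdh9 was highest on array 2 (0.909) and Pcdhb1 was highest on array 3 (0.930). Within this group, Pcdh9 had the same value on arrays 3 and 4, and Pcdhb1 on arrays 1 and 2. A value shared by 2 or more arrays occurred in 21 members and in 53.6% of all genes. The rate of about 1 in 20 is for values without such ties, so it is only a rough guide here. Cdh6 and Pcdh1 were called in every fit that left out an array.

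A probe set outside the comparisons differed between the groups, at levels below the array medians of 5.87 to 5.92 and without a detection call. It lists 14 genes of the protocadherin alpha cluster, which share their last exons, and had a level of 5.12 ± 0.14 (SD, n = 4) on YFP-positive arrays and 4.37 ± 0.10 (SD, n = 3) on YFP-negative arrays. The difference of 0.75 ± 0.10 (SE; 0.750 to 3 decimals) was called over all probe sets (limma adjusted p = 0.00416), and which alpha genes gave it cannot be told apart.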

How the results depend on the processing

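Of the 17 called members, 7 kept their call under all 17 alternatives, 4 lost it only against a fold of 1.5, and none changed sign. Against a fold of 1.5 the calls numbered 1027 genes, 6 members higher and 1 lower, with 0 classical members lower, 2 non-clustered protocadherins higher and 1 lower, and 0 clustered protocadherins higher. Calls of non-clustered protocadherins on the lower side numbered 1 with the dimmest 6646 genes left out (Pcdh19 was then not tested) or without YFP-positive arrays 3 and 4, and 1 to 3 with each array left out (1 without YFP-negative array 2). Atypical calls numbered 1 (Cdh13) with array weights and 0 to 1 with each array left out (1 without YFP-negative array 1). With each array left out, 9 to 11 members were called higher, 3 to 6 lower, and 2368 to 3337 genes in all. Deviations of same-numbered arrays from their group means correlated at 0.01, -0.09 and 0.04. Those of differently numbered arrays correlated at -0.16 to 0.27. So few arrays cannot show whether replicate numbers pair the samples. Only the YFP-positive group has an array 4, so the replicate block drew its differences from arrays 1 to 3 of each group. With it, 13 members were called higher and 4 lower, not all of them the same, and 2509 genes in all. Cdh3 was then not called (limma adjusted p = 0.0572). Cdh17 differed by -0.22 and Cdh26 by 0.027, the same differences as without YFP-positive array 4. Other changes of sign were of uncalled members: without YFP-positive arrays 3 and 4, -0.51 for Cdh17 and -0.008 for Cdh24; with array weights, 0.032 for Pcdhb1 and -0.038 for Pcdhb14. With each array left out, ranges were -0.47 to 0.14 for Cdh1, -0.22 to 0.27 for Cdh17, -0.069 to 0.071 for Cdh22, -0.046 to 0.027 for Cdh26, -0.222 to 0.019 for Cdh4, -0.015 to 0.035 for Pcdh8, -0.082 to 0.051 for Pcdhb1, -0.16 to 0.18 for Pcdhb14, -0.009 to 0.057 for Pcdhb15 and -0.011 to 0.18 for Pcdhb3. The causes were not tested. Of the uncalled members, 12 were called in some alternative: Cdh5 in 5, Cdh13, Cdh18, Cdh20 and Pcdhb20 in 2 each, and Pcdh7, Pcdh9, Pcdh20, Pcdhb2, Pcdhb12, Pcdhb17 and Pcdhb21 in 1 each (Pcdh7 without YFP-negative array 3, limma adjusted p = 0.017). Dim members have no detection call, so their differences may be understated.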
